A study of Mus musculus with 18 samples.

Results

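Carm1, Neat1, Nono, Sfpq, Pspc1, Prdm14 and Sox21 are genes of paraspeckles and of proposed early asymmetry between blastomeres, and their signals were followed in single cells of 2-cell mouse embryos made by parthenogenesis. They were chosen by symbol, 7 of the 30738 genes that could be named on the array, and each was read by 1 probe set. The array series asked whether sisters, which share an oocyte but no sperm, carry like amounts of mRNA. It held 18 single blastomeres from 9 embryos, numbered 1 to 5 and 7 to 10, with sisters a and b in each. Oocytes came from hormone-stimulated B6C3F1 mice, a cross of C57BL/6 and C3H mice. They were activated for 6 h in calcium-free medium that held SrCl2 (10 mM) and Latrunculin. The sample labels give Latrunculin at 10 micromolar, whereas the study's methods give 5 micromolar. Latrunculin blocks the assembly of actin, so that the polar body chromosomes stay in the egg and the embryo is diploid without a paternal genome. Embryos were then grown in KSOM(aa) medium and split 1 day after activation, at 20 h of culture. All blastomeres had the same treatment, so the comparisons lay between sisters and non-sisters and between embryos, with no fertilized or untreated control. Each blastomere went onto 1 array. The sister letters only name the members of a pair.

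Paraspeckles are nuclear bodies built on the long noncoding RNA Neat1. The related proteins NONO, SFPQ and PSPC1 bind this RNA and each other. CARM1 is an arginine methyltransferase that acts on histone H3 and on coactivators, and it is found with paraspeckles in mouse blastomeres. In mouse embryos at the 4-cell stage, higher CARM1 activity has been linked with a tendency of the progeny towards the inner cells of the blastocyst. The transcription factors PRDM14 and SOX21 have been placed in the same setting, PRDM14 as a partner of CARM1 and SOX21 as a target of its activity.

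Values are log2 signals, so that 1 unit is a 2-fold difference, and a ratio between sisters is the higher over the lower signal and never under 1. The threshold for background was a mean signal of 5.80, the 95th percentile of 1451 genes for chemosensory receptors and the Y chromosome, which these cells should not express. Above it were 13116 of the 30738 genes, among them Carm1, Neat1, Nono, Sfpq and Pspc1, while Prdm14 and Sox21 stayed below. Array medians lay between 4.86 and 5.26, and the arrays of blastomeres 1a and 5b had the widest spread around the median array (interquartile range 0.815 and 0.84, against 0.545 to 0.79 for the rest). All 14 oocyte and 2-cell embryo markers measured were above background, such as Btg4 at 17.20 ± 0.10 (SD, n = 18), whereas 2 of 13 cumulus and granulosa cell markers were, Has2 at 6.43 ± 0.44 and Amhr2 at 5.90 ± 0.44. Of 7 blood and oviduct markers, 4 were above background, Pecam1, Cd68, Wfdc2 and Epcam, with means from 5.87 to 7.90, a share not below that of all genes. Of 8 Y-linked genes 1 was above it, Sry at 7.82. The embryos have no Y chromosome, so some signals above the threshold do not come from a transcript of the gene named. Haemoglobin genes are not analysed here.

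Carm1 (probe TC0900000200.mm.1, chromosome 9) was above background in all 18 blastomeres, and its sisters were at most 1.66-fold apart. Its lowest signal was 8.53 (blastomere 10b), its median 9.32 and its highest 10.19 (blastomere 7a). Sister a and sister b read 9.11 and 9.83 in pair 1, 9.15 and 9.40 in pair 2, and 9.43 and 9.68 in pair 3. In pair 4 they read 9.43 and 9.18, in pair 5 9.42 and 8.94, and in pair 7 10.19 and 10.07. They read 9.04 and 9.24 in pair 8, 9.44 and 8.71 in pair 9, and 9.04 and 8.53 in pair 10. No pair reached a 2-fold difference, whereas 65.5% of genes above background did so in at least 1 of the 9 pairs. The ratio ran from 1.09 in pair 7 to 1.66 in pair 9, with 1.65 in pair 1, and sister a held the higher signal in 5 pairs and sister b in 4.

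For Carm1 the geometric mean ratio was 1.31 between sisters and 1.41 between non-sisters, that is, all blastomeres of other embryos. The mean log2 distance between sisters was 78.2% of that between non-sisters (exact permutation test over all 34459425 ways of forming 9 pairs, two-sided, p = 0.239). That order rested on pair 7, the embryo with the highest Carm1 (mean of sisters 10.13, against 8.78 to 9.56 in the other 8 embryos). Without it, sisters stood at 111% of the non-sister distance (exact p = 0.664). Among genes above background the median ratio was 1.45 between sisters and 1.56 between non-sisters. The SD between sisters was 0.31 for Carm1, against a median of 0.61 for the 500 genes nearest in signal, of which 7.8% had a lower one. This did not pass the test against the sister variance that limma expects at that signal (variance ratio 0.358, limma adjusted p = 0.966).

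**Figure D1:**
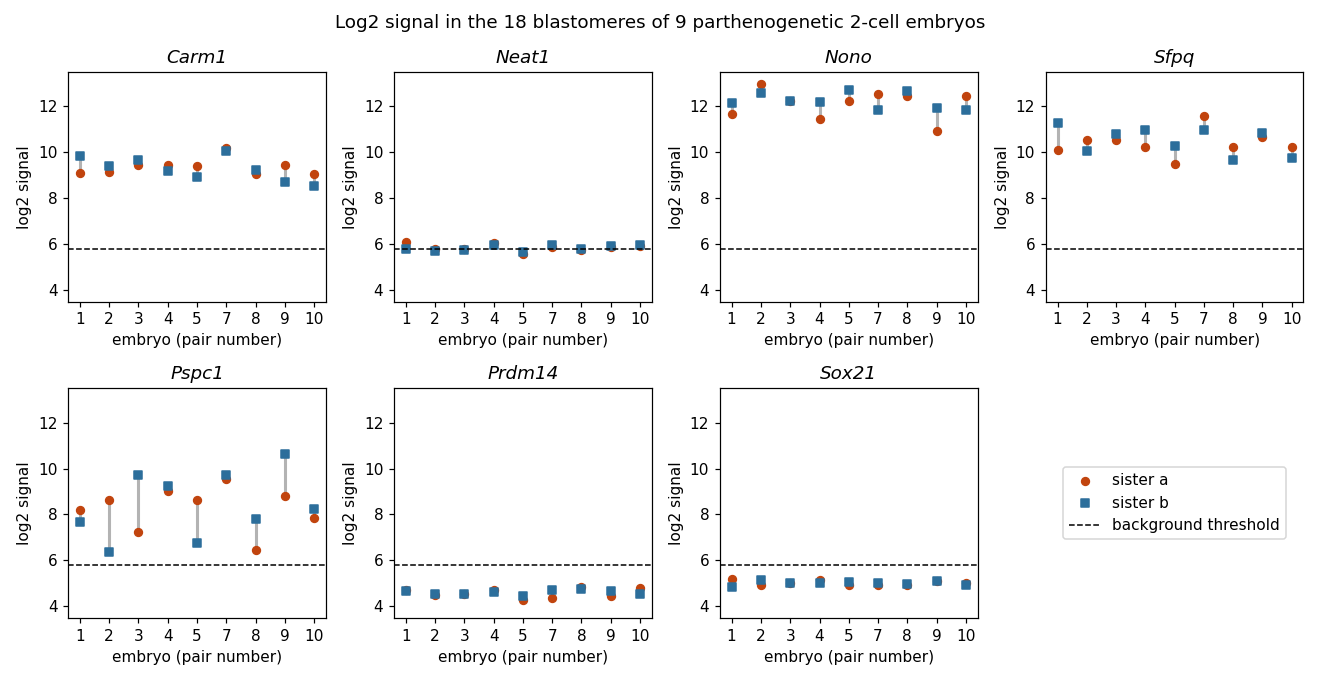
Log2 signal of each gene (vertical axis) in sister a (circles) and sister b (squares) of the 9 embryos (horizontal axis), joined by a line, with the background threshold of 5.80 dashed. Pspc1 sisters lie up to 2.45 log2 units apart, Carm1 sisters at most 0.73, and Neat1 runs along the threshold.

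The DBHS proteins, named after a Drosophila behaviour gene and a human splicing factor, are the protein core of paraspeckles. Pspc1 varied more between blastomeres (SD 1.19, n = 18) than Nono and Sfpq (SD 0.50 and 0.56), which also serve splicing and DNA repair. The promoters of the 3 genes are shown because Nono and Sfpq were higher in the same sister in 8 of 9 pairs, against 5 and 4 pairs for Pspc1 with Nono and with Sfpq. The RefSeq table (GRCm38.p6) held 4 of the 7 genes (the other was Sox21). The lines give the 150 bases before the start of each gene, 5′ to 3′ on the strand of the gene, with the letters CCAAT and their reverse complement ATTGG in capitals.
Nono (chrX:101429501-101429650, plus strand): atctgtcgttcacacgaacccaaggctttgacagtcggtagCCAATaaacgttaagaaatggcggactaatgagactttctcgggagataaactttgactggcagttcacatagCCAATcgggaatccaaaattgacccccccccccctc
Sfpq (chr4:127021151-127021300, plus strand): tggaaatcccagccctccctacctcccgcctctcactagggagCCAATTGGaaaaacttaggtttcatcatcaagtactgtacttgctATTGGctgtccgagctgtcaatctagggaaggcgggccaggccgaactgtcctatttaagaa
Pspc1 (chr14:56778319-56778468, minus strand): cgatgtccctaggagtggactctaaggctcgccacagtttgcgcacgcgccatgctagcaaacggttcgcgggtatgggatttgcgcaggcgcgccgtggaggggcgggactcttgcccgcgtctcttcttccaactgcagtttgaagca

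The window of Nono held 2 matches and that of Sfpq 3, of which a forward and a reverse one overlap, while that of Pspc1 held 0. Of all 32851 promoters in the table, 24.5% held 1 or more matches on either strand, 6.0% held 2 or more and 1.2% held 3 or more. Most promoters thus held 0, as that of Pspc1 did. These are matches of letters, not sites of binding. Whether they bear on the sister signals of the 3 genes was not tested.

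Nono (probe TC0X00000974.mm.1, X chromosome) ran from 10.93 (blastomere 9a) over a median of 12.24 to 12.97 (blastomere 2a). Its sisters a and b read 11.66 and 12.14 in pair 1, 12.97 and 12.59 in pair 2, 12.23 and 12.24 in pair 3, 11.45 and 12.20 in pair 4, and 12.25 and 12.72 in pair 5. They read 12.53 and 11.82 in pair 7, 12.46 and 12.66 in pair 8, 10.93 and 11.94 in pair 9, and 12.45 and 11.82 in pair 10. Pair 9 alone passed 2-fold, with a ratio of 2.01, and pair 3 was equal within a ratio of 1.01. The geometric mean ratio was 1.43 between sisters and 1.49 between non-sisters, which did not pass the test (90.2% of the non-sister distance, exact p = 0.579).

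Sfpq (probe TC0400001477.mm.1, chromosome 4) ran from 9.47 (blastomere 5a) over a median of 10.40 to 11.60 (blastomere 7a). The platform annotation lists its probe set under Sfpq and Gm12940, which RefSeq gives as an older name of Sfpq. Sister a and b read 10.09 and 11.29 in pair 1, 10.54 and 10.07 in pair 2, 10.53 and 10.79 in pair 3, 10.23 and 10.97 in pair 4, and 9.47 and 10.27 in pair 5. In pairs 7, 8, 9 and 10 they read 11.60 and 10.96, 10.23 and 9.66, 10.68 and 10.85, and 10.24 and 9.76. Only pair 1 passed 2-fold, with a ratio of 2.30, and this is the pair of the widely spread array 1a. Without pairs 1 and 5, which hold the arrays of widest spread, 0 pairs did and the geometric mean ratio was 1.39 in place of 1.51. Non-sisters were 1.58-fold apart (sisters at 89.7% of the non-sister distance, exact p = 0.602, and at 101% without pair 7, exact p = 0.962).

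Pspc1 (probe TC1400002128.mm.1, chromosome 14), the third DBHS gene, was far apart between sisters in several pairs. Its signal ran from 6.38 (blastomere 2b) over a median of 8.43 to 10.65 (blastomere 9b), a 19.3-fold range. All 18 values lay above the threshold. Sisters a and b read 8.62 and 6.38 in pair 2, 7.25 and 9.70 in pair 3, 8.61 and 6.78 in pair 5, 6.47 and 7.80 in pair 8, and 8.80 and 10.65 in pair 9. These are the 5 pairs over 2-fold, with ratios of 4.72, 5.46, 3.56, 2.51 and 3.61, and the higher signal was in sister a in pairs 2 and 5 and in sister b in pairs 3, 8 and 9. The sisters of the other 4 pairs were close. They read 8.18 and 7.68 in pair 1, 9.02 and 9.23 in pair 4, 9.54 and 9.70 in pair 7, and 7.84 and 8.26 in pair 10, with ratios of 1.41, 1.16, 1.12 and 1.34.

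The geometric mean ratio of Pspc1 was 2.33 between sisters and 2.65 between non-sisters (87.0% of the non-sister distance, exact p = 0.499). Of genes above background, 8.86% were over 2-fold apart in 5 or more of the 9 pairs, and 28.4% in 3 or more. The SD between sisters was 1.06 log2 units, higher than in 88.0% of the 500 genes nearest in signal, whose median was 0.59. The variance was 4.02 times that expected for its signal, which did not pass the test (limma adjusted p = 0.970). In this test 0 of 13116 genes had a sister variance above and 0 below the expected one at an adjusted p under 0.05 (0.0% each, the smallest adjusted p being 0.324), and at an unadjusted p under 0.05 it marked 1.9% above and 3.76% below, Neat1 being the only one of the 5 genes among them, on the lower side. With 1 array a blastomere, a difference in transcript and a difference that arose in amplification cannot be told apart. Without pairs 1 and 5 the ratio of Pspc1 was 2.36, with 4 of 7 pairs over 2-fold.

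**Figure D2:**
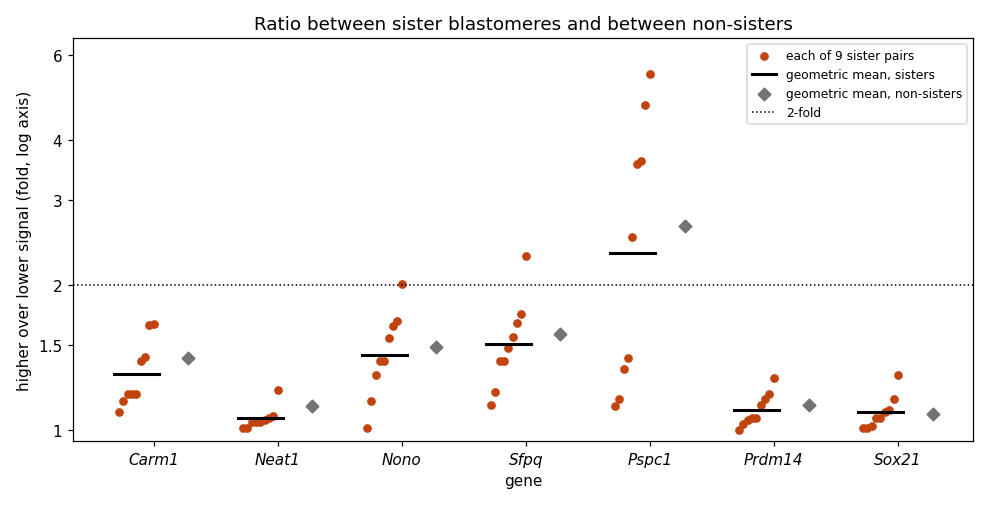
Higher over lower signal (vertical log axis, fold) of each gene in the 9 sister pairs (points), with the geometric mean of sisters (bar) and of non-sisters (diamond). Pspc1 has 5 pairs over 2-fold, Nono and Sfpq 1 each, and the other 4 genes none.

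Neat1 (probe TC1900000986.mm.1, chromosome 19), the scaffold RNA, was read at the edge of detection. Its lowest signal was 5.59 (blastomere 5a), its median 5.84 and its highest 6.09 (blastomere 1a), and 10 of 18 values lay above the threshold of 5.80. Its mean of 5.85 ± 0.14 exceeded that threshold by 0.05, and 67 of the 1451 receptor and Y-linked genes had a mean as high or higher. Malat1, another abundant nuclear RNA of many cell types, read 9.05 ± 0.70 (SD, n = 18). At the stricter 99th percentile of the same genes, 7.14, Neat1 would not have been called.

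Sisters a and b read 6.09 and 5.81 in pair 1, 5.77 and 5.72 in pair 2, 5.80 and 5.73 in pair 3, and 6.07 and 5.97 in pair 4. They read 5.59 and 5.65 in pair 5, 5.87 and 5.96 in pair 7, 5.74 and 5.80 in pair 8, 5.89 and 5.90 in pair 9, and 5.93 and 5.95 in pair 10. The ratio between sisters was thus 1.07 or less in 8 pairs and 1.21 in pair 1. Sisters of Neat1 were closer than non-sisters, with geometric mean ratios of 1.06 and 1.12, or 50.0% of the non-sister log2 distance (exact p = 0.0107). Over all genes tested this did not pass (adjusted p = 0.203). It was the only one of the 7 genes with an exact p under 0.05, and 12.9% of genes above background had sisters closer at that level. Without pair 5 the exact p was 0.0899, and without pair 1 it was 0.000913. Across the 18 arrays Neat1 went with the median signal of the array (Pearson's r = 0.66, Spearman's rho = 0.58), being lowest where the array median was lowest (5a, 4.86) and highest where it was highest (1a, 5.26). With each array centred on its median, the exact p was 0.0113.

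Prdm14 (probe TC0100001968.mm.1, chromosome 1), a regulator of pluripotent and germ cells, was not above background in any blastomere. It ran from 4.29 (5a) over a median of 4.59 to 4.83 (8a), and 585 of the 1451 receptor and Y-linked genes were as high or higher. Sox21 (probe TC1400002713.mm.1, chromosome 14), a SoxB transcription factor, likewise had 0 of 18 values above the threshold, from 4.83 (1b) over a median of 5.00 to 5.21 (1a), and 283 of those genes were as high or higher. At such signals the array reads mostly background, so sister ratios of 1.10 for Prdm14 and 1.09 for Sox21 (1.13 and 1.08 between non-sisters) do not measure a transcript. The exact p was 0.310 for Prdm14 and 0.842 for Sox21. A transcript below the reach of the array was not detectable, which is not the same as absent.

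Embryos did not differ beyond the spread between sisters in any of the 5 genes above background. In limma's moderated F test, with embryo as a factor, 0 of 5 passed at an adjusted p under 0.05 and 0 of 5 at an unadjusted p under 0.05, where 748 of 13116 genes (5.7%) passed the first and 2944 (22.4%) the second. The mean of the Carm1 sisters was lowest in embryo 10 (8.78) and highest in embryo 7 (10.13), with adjusted p = 0.377. Nono was lowest in embryo 9 (11.43) and highest in embryo 2 (12.78), with adjusted p = 0.369. Sfpq was lowest in embryo 5 (9.87) and highest in embryo 7 (11.28), with adjusted p = 0.381. Pspc1 had the widest run of the 5, lowest in embryo 8 (7.14) and highest in embryo 9 (9.73), beside a sister SD of 1.06 (limma adjusted p = 0.368). Neat1 lay between 5.62 (embryo 5) and 6.02 (embryo 4), with adjusted p = 0.607. For Neat1 the moderated test and the plain analysis of variance named in the methods were apart, with unadjusted p = 0.373 and 0.0113 (19.6% of genes were under 0.05 in the plain form), and the adjusted p of the plain form was 0.124. The moderated form draws the sister SD of Neat1 (0.08) towards that expected at its signal (0.29), while the plain form uses its own. The labels give no batch or scan date, so that shared processing of sisters cannot be told apart from likeness of embryos.

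**Figure D3:**
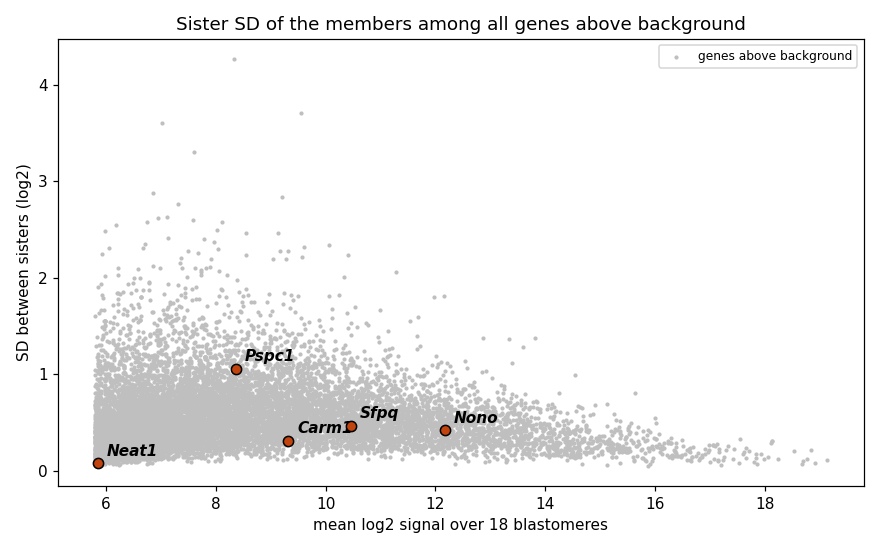
SD between sisters (vertical axis, log2) against the mean log2 signal (horizontal axis) for the 13116 genes above background (grey), with the 5 genes named. Pspc1 has an SD of 1.06, Carm1 of 0.31 and Neat1 of 0.08.

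Sisters were also compared by letter. Sister a over sister b was 0.07 log2 units for Carm1 (95% confidence interval from -0.34 to 0.49), 0.03 for Neat1 and -0.13 for Nono. It was -0.11 for Sfpq and -0.21 for Pspc1, where the interval ran from -1.21 to 0.80. With embryos as blocks in limma, the adjusted p lay between 0.981 and 0.994 for the 5 genes, and 0 of 13116 genes (0.0%) differed by letter, with 601 at an unadjusted p under 0.05.

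Within pairs, Nono and Sfpq were higher in the same sister in 8 of 9 pairs. In pairs 1, 3, 4, 5 and 9 this was sister b and in pairs 2, 7 and 10 sister a, while in pair 8 Nono was higher in b and Sfpq in a. Among other genes above background, 1.71% were higher in the same sister as Nono, and 1.89% in the same sister as Sfpq, in 8 or more pairs. The sister differences of Nono and Sfpq had a Pearson's r of 0.71 and a Spearman's rho of 0.67 over 9 pairs, whereas the means of the embryos went the other way (r = -0.51). Both genes share the array of each blastomere, and the pair was picked from 10 such combinations, so the values are a description. In pair 3 the Nono sisters were 0.01 log2 units apart, less than can be ordered.

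Carm1 and Neat1 went in opposite directions in 7 of 9 pairs. The exceptions were pair 4, where sister a was higher in both, and pair 8, where sister b was. Of other genes above background, 6.74% opposed Carm1 in 7 or more pairs. Pearson's r of the sister differences was -0.64 and Spearman's rho -0.46 over 9 pairs, the largest Neat1 difference being that of pair 1. With Neat1 at the background threshold, and 5 of its 9 sister differences at 0.06 log2 units or less, this ordering rests on very small steps. Carm1 was higher in the same sister as Nono in 5, as Sfpq in 4 and as Pspc1 in 3 of 9 pairs, and Pspc1 in the same sister as Nono in 5 and as Sfpq in 4.

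**Figure D4:**
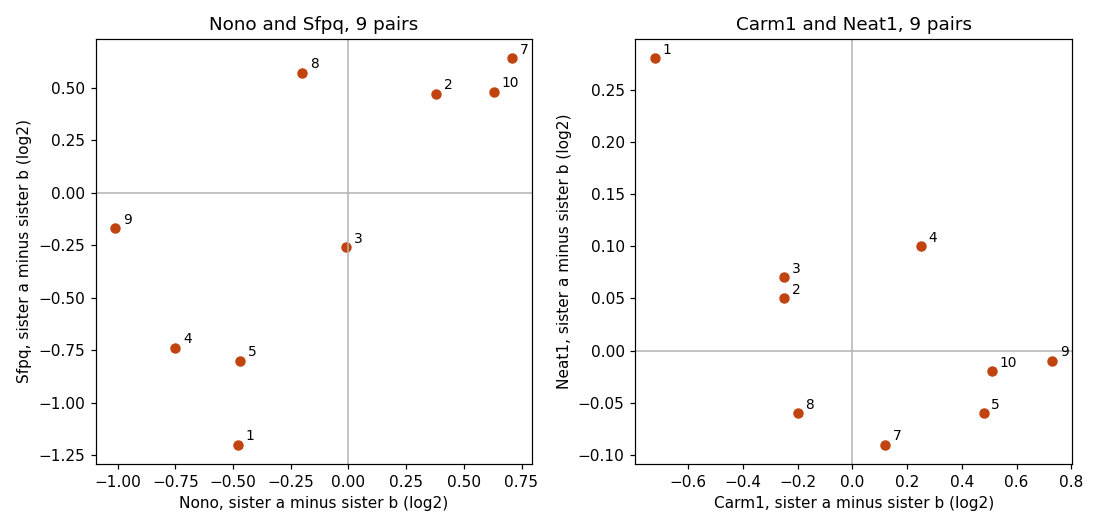
Sister a minus sister b (log2) in each numbered pair, Sfpq against Nono on the left and Neat1 against Carm1 on the right, with lines at zero. Nono and Sfpq agree in sign in 8 of 9 pairs, and Carm1 and Neat1 in 2, where Neat1 spans only -0.09 to 0.28.

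Between embryos, Sfpq and Pspc1 ran together (r = 0.80 and rho = 0.77 over 9 means of sisters), and so did Carm1 and Sfpq (r = 0.78, rho = 0.53), both highest in embryo 7. Nono ran against Pspc1 (r = -0.76, rho = -0.78) and against Neat1 (r = -0.70, rho = -0.75). These are 9 points that share the arrays, and none of the genes differed between embryos in limma.

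The genes most like each gene over the 18 blastomeres were sought among all named genes above background, by Pearson's r and without predicted genes. For Carm1 these were the ribosomal pseudogene Rpl15-ps3 (r = 0.87), Kansl1, which encodes a subunit of a histone acetyltransferase complex (0.85), and Coa6, an assembly factor of cytochrome c oxidase (0.84). Nono had Dnajc11 (0.84), Nudc (0.77) and Gnas (0.76), and Sfpq had Rps7, Tfg and Sltm (0.82 each). For Pspc1 they were Wipf2 (0.86), which binds actin regulators, the chromatin remodelling subunit Smarcc1 (0.79) and Idh3g (0.77). In Wipf2 the same sister as in Pspc1 was higher in 8 of 9 pairs (r of sister differences 0.93). For Neat1 they were Sh2d1b2 (0.91), Tnnt1 (0.89) and Plekhd1 (0.86), the first of which is known from natural killer cells and the second from slow muscle. The highest r among 13116 genes is high by selection, and sisters are not independent points.

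Of a list of 33 genes for paraspeckle proteins, Nono, Sfpq and Pspc1 included, 26 were measured by a probe set of 1 gene and 24 were above background. Their median sister ratio was 1.44, next to 1.45 for all genes above background. It ran from 1.14 for Dazap1, an RNA-binding protein, to 2.33 for Pspc1, and Hnrnpm stood next to it at 2.29 with 5 pairs over 2-fold. In 17 of 24 the mean distance was smaller between sisters than between non-sisters, where 68.9% of all genes above background did so, and 2 of 24, Hnrnph1 (exact p = 0.0141, adjusted 0.223) and Srsf10 (exact p = 0.00779, adjusted 0.180), had an exact p under 0.05 with sisters closer, where 12.9% of all genes above background did. Srsf10, a splicing regulator, was the only one of the 24 to differ between embryos, where 5.7% of all genes above background did. Its mean of sisters ran from 10.03 in embryo 8 to 11.83 in embryo 4 (limma adjusted p = 0.0435). This call was lost in 22 of the 27 fits without 1 blastomere or 1 pair, with the highest adjusted p, 0.258, without pair 8, and also with median centring (0.0835) and with no background threshold (0.113).

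Among arginine methyltransferases, 5 of 8 measured were above background, Carm1, Prmt1, Prmt3, Prmt5 and Prmt6. Of these 1 differed between embryos, where 5.7% of all genes above background did. Carm1 had the smallest sister ratio of the 5 (1.31) and Prmt5, which forms symmetric dimethylarginine, the largest (1.66). Prmt6, a nuclear enzyme that methylates histone H3, was low in both sisters of embryos 5 and 10 and high in both of embryo 4. It read 8.44 and 7.98 in sisters a and b of embryo 5, 7.98 and 7.77 in embryo 10, and 11.14 and 10.77 in embryo 4. In embryos 1, 2 and 3 it read 9.73 and 10.77, 9.66 and 8.73, and 10.08 and 9.71, and in embryos 7, 8 and 9 it read 10.61 and 10.64, 9.53 and 9.11, and 10.79 and 10.25. The means of the sisters ran from 7.88 in embryo 10 to 10.96 in embryo 4 (limma adjusted p = 0.00902), and sisters were 1.40-fold and non-sisters 2.49-fold apart (exact p = 0.00211, adjusted p = 0.110, which did not pass). The limma call held in each of the 27 fits without 1 blastomere or 1 pair (adjusted p from 0.00601 to 0.0410).

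**Figure D5:**
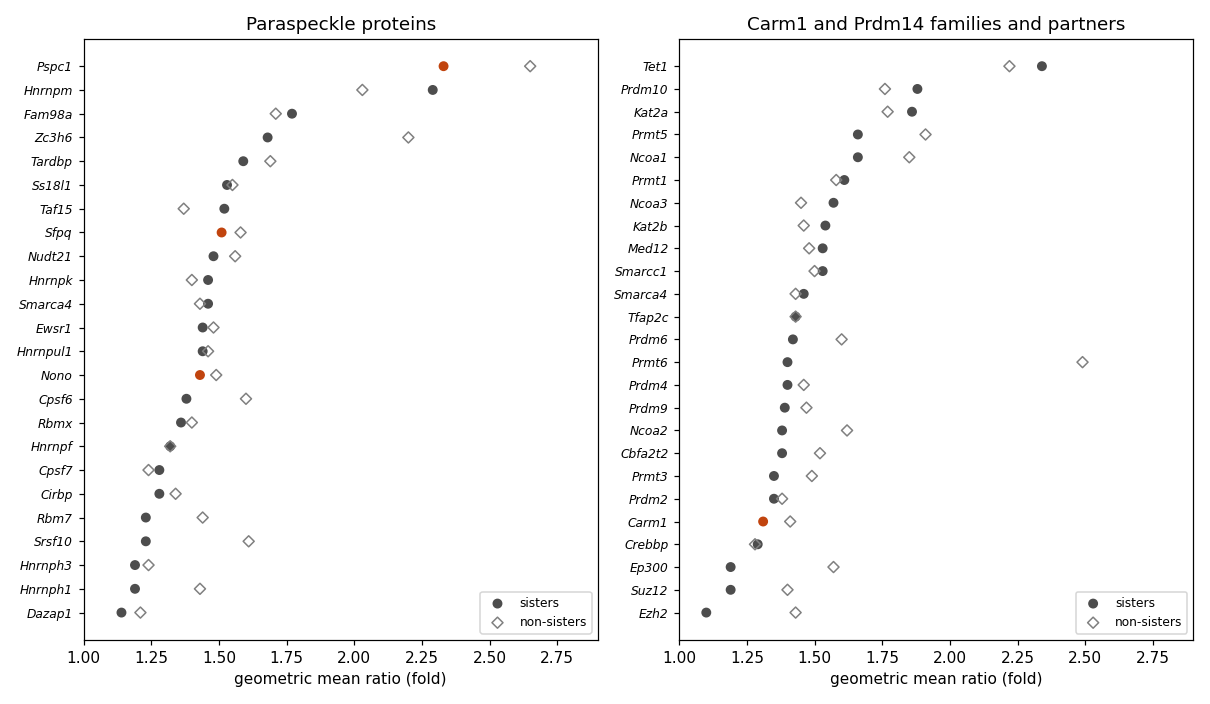
Geometric mean ratio (horizontal axis, fold) between sisters (filled) and non-sisters (open diamonds) for paraspeckle proteins (left) and for arginine methyltransferases, coactivator partners of Carm1, PRDM genes and partners of Prdm14 (right), with Carm1, Nono, Sfpq and Pspc1 coloured. Prmt6 sisters are 1.40-fold apart against 2.49-fold for non-sisters, and Pspc1 has the highest sister ratio on the left.

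All 10 coactivator partners of Carm1 were above background and 0 differed between embryos (5.7% of all genes above background did), with 2 at an unadjusted p under 0.05, where 22.4% of all genes were. A count of 1 was reached with quantile normalization, with the 99th percentile threshold and without blastomere 7b. Their median sister ratio was 1.53, from 1.19 for the acetyltransferase gene Ep300 (non-sisters 1.57, exact p = 0.000958, adjusted 0.0838, limma adjusted p = 0.0556) to 1.86 for Kat2a. Of 9 readers and erasers of arginine methylation, 5 were above background, with 0 calls and a median ratio of 1.33, from 1.23 for Jmjd6 to 1.78 for the oocyte gene Padi6. The partners of Prdm14 held 5 of 7 genes above background, from a ratio of 1.10 for Ezh2, the catalytic subunit of Polycomb repressive complex 2, to 2.34 for Tet1, which oxidizes methylcytosine. Ezh2 was the only one called between embryos (limma adjusted p = 0.0171), where 5.7% of all genes above background were. It read 14.84 and 14.95 in sisters a and b of embryo 5, the highest, and 13.55 and 13.52 in embryo 4, the lowest. Its sisters were 1.10-fold and non-sisters 1.43-fold apart (exact p = 0.000353, adjusted p = 0.0455). Of all genes above background, 0.892% had sisters closer at an adjusted exact p under 0.05. The limma call of Ezh2 was kept in 34 of 37 other settings. It was lost without blastomere 5b (adjusted p = 0.0550), without pair 5 (0.102) and without pairs 1 and 5 (0.0852). With quantile normalization 2 partners were called.

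Relatives of Sox21 and Prdm14 were read at a range of signals, where 13116 of 30738 genes were above background. Of 5 SoxB genes only Sox2 was above background (6.01 ± 0.31, sister ratio 1.21), and of 14 PRDM genes measured 5 were, Prdm2, Prdm4, Prdm6, Prdm9 and Prdm10, with means from 6.07 to 9.79, a median sister ratio of 1.40 and 0 calls between embryos (5.7% of all genes above background were called). The sister ratio ran from 1.35 for Prdm2 to 1.88 for Prdm10. Of 9 embryo lineage genes, 5 were above background with 0 calls, from Cdx2 at a sister ratio of 1.10 to Sall4 at 1.81. Nanog (5.78), Klf4 (5.72), Esrrb (4.75) and Sox17 (4.36) were below. Of 7 nuclear long noncoding RNAs measured, 3 were above background, Neat1, Tsix at 5.89 and Malat1 at 9.05, with sister ratios of 1.06, 1.13 and 1.49, and 0 were called. At the share of 5.7% among all genes above background, 0 calls in lists this short do not set them apart from other genes.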

How the data were processed

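Total RNA of 18 single blastomeres was profiled by the authors on Affymetrix Mouse Transcriptome Array 1.0. Per the study's methods, the deposited log2 signals had been background-corrected, normalized and summarized by SST-RMA, a robust multiarray average, with the Expression Console and Transcriptome Analysis Console of Affymetrix. This brings the arrays to a like scale, so differences in total RNA are not visible. It did not make them equal, as array medians still lay between 4.86 and 5.26. For the probe sets no genome build is named in the sources. The number of arrays limits the precision.

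Of 65956 probe sets, 31292 were named to 1 gene through the platform annotation and RefSeq (GRCm38.p6), 654 of them listed under several names of that gene. The probe set with the highest mean stood for a gene. Differences between embryos, variance between sisters and sister a over b were tested in R 4.3.3 using limma 3.58.1, with an intensity trend and Benjamini-Hochberg adjustment over 13116 genes at 0.05. Variance was set against limma's prior (3.3 degrees of freedom). The exact test enumerated all pairings, two-sided by doubling the smaller tail (smallest p 5.8e-08). Python 3.11.15, numpy 2.4.6, pandas 2.3.3 and numba 0.67.0 were used. The scripts were tested on simulated data. Alternatives were 2 other normalizations, other thresholds, probe averaging, other variance models and leaving out blastomeres or pairs. The members and gene lists were chosen with earlier results of these data known. Named were the 7 genes, called genes and extremes of the lists, and the 3 genes most like each member. P-values measure the spread between these blastomeres.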

Additional observations from a re-analysis of the deposited data

Results flagged for a closer look

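The sister distance of Neat1 in pair 1 was 0.28 log2 units, far from the next highest of 0.10 among the 9 pairs (a gap of 0.667 of the whole range, above Dixon's 95% critical value). Blastomere 1a, which read 6.09, also had the highest array median (5.26) and one of the widest arrays. The 14 sets of 9 values examined (the embryo means and the sister distances of the 7 genes) gave 1 such case. Chance flags about 1 in 20 sets of normally distributed values. Sister distances carry no sign, so that rate need not hold for them.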

How the results depend on the processing

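Under every setting that tested them, 0 of the 5 genes above background were called as differing between embryos. Likewise 0 stood out in sister variance and 0 differed by letter. The variance and letter tests called 0 of all 13116 genes in the main setting (smallest adjusted p 0.324 and 0.981). These 2 tests therefore cannot set the 5 genes apart from the rest. The count of all genes that differed between embryos was 748, and 407 with no background threshold, 347 with the plain analysis of variance and between 427 and 903 without 1 blastomere or 1 pair. It fell by more than 1.5 times without pair 7 (427), 8 (480), 9 (497) or 10 (477) and without blastomere 3b (479), 4b (496), 8a (487), 8b (468), 9b (461), 10a (493) or 10b (442). With the sister letter as a replicate block the adjusted p of Carm1 was 0.423 and that of Pspc1 0.413, and it changed no call of the 5 genes. Without the embryo as a replicate block, sister a over b had an adjusted p of 0.999 for both. The 1 gene with sisters closer at an unadjusted exact p under 0.05, Neat1, became 0 under the 99th percentile threshold, where Neat1 is no longer tested, and 0 without pair 5, with a range of 0 to 1 without 1 pair. Sisters at a smaller distance than non-sisters turned to a larger one for Nono (108%) and Pspc1 (109%) with the median in place of the mean, and for Carm1 (111%) and Sfpq (101%) without pair 7, with ranges of 69.1% to 111% and 79.9% to 101% without 1 pair. The cause was not tested. Genes near 5.80 could not be told from background, which limits Neat1, Prdm14 and Sox21. The same limit holds for listed genes not far above it, such as Tsix (5.89), Amhr2 (5.90), Sox2 (6.01), Prdm9 (6.07) and Cdx2 (6.08).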
